A study of Homo sapiens with 23 samples.

Results

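The genes described here are those commonly used to mark a stem-like state or aldehyde dehydrogenase activity in tumour cells, namely ALDH1A1, ALDH1A2, ALDH1A3, ALDH3A1, CD44, PROM1, CD24, SOX2, SOX9 and KLF4. They were taken by symbol and read from the expression table by NCBI Gene ID, and 9 of the 10 have a row among its 21658 genes. CD24 was not analysed here. RNA-seq was performed on 4 established ovarian cancer cell lines, Kuramochi, OVSAHO, OV-90 and EFO-21. Each was profiled as the parental line and as a prexasertib-resistant line derived from it under rising drug concentrations. Prexasertib is a small-molecule inhibitor of the checkpoint kinase CHK1. There were 3 libraries per group and 2 for parental OV-90, 23 in all, and the labels call them biological replicates. Neither the labels nor the methods state whether drug was present when RNA was collected, whether a resistant line was a clone or a pool, or whether a parental line was passaged alongside, so drug exposure, clonal origin and time in culture cannot be told apart from resistance. Values are log2 expression values, quantile normalized over the libraries, and libraries are named by the number from 2 to 24 that the table gives them.

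ALDH1A1, ALDH1A2 and ALDH1A3 are cytosolic retinaldehyde dehydrogenases, which oxidise retinaldehyde to retinoic acid, the ligand of the nuclear receptors RARA, RARB and RARG. Their activity, together with that of ALDH3A1, underlies the fluorescent aldehyde dehydrogenase assays with which stem-like tumour cells are sorted. CD44 and PROM1 (CD133) are surface glycoproteins sorted for the same purpose, and SOX2, SOX9 and KLF4 are transcription factors of pluripotent or progenitor cells, of which SOX2 and KLF4 are reprogramming factors. The comparisons ask how far these genes differ between the lines before selection and whether they moved with acquired resistance. In bulk RNA, fewer cells of a type and less RNA per cell cannot be told apart.

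Some parental libraries stood apart. Taking 4 or more genes of a short list above the library median as the criterion, 5 libraries (2, 6, 7, 8 and 9) held immunoglobulin, globin and squamous keratin transcripts (IGHG1, IGLC2, HBB, KRT14 and KRT6A), with a summed level on the log2 scale of 9.26 to 10.41. Another 3 libraries (3, 4 and 5) held skeletal muscle transcripts (MYH2, MYL1, TNNI2 and PVALB), with a summed level of 9.57 to 10.31. These genes were chosen after the values of the libraries were seen. In the 12 resistant libraries the summed levels were 2.55 to 4.55 and 2.02 to 5.57, and in parental EFO-21 2.59 to 3.43 and 2.38 to 3.05. Both parental OV-90 libraries, all 3 of parental Kuramochi and all 3 of parental OVSAHO were therefore affected. In OVSAHO, Kuramochi and OV-90 every parental library held one list or the other, so resistance and these transcripts cannot be told apart in these 3 lines, while EFO-21 was free of them in both states. The parental OV-90 libraries correlated with each other at r = 0.952 over all genes, against 0.971 or more within each other group. The labelled cell type was checked with 9 ovarian and epithelial carcinoma markers. Of these, 8 lay above the library median in parental OVSAHO, 6 in parental Kuramochi, and 5 in parental OV-90 and in parental EFO-21. PAX8, a transcription factor of Mullerian epithelium, was between 1.77 and 2.43 in all OV-90 libraries and 8.42 or more in every library of the other lines, and WT1 did not exceed 2.09 in OV-90 or 1.21 in EFO-21. In resistant Kuramochi 3 of the 9 markers lay above the median. Summed leukocyte markers were 5.38 to 7.83 outside OV-90 and 11.85 to 12.50 in OV-90 of both states, endothelial markers 3.07 to 10.08 and fibroblast markers 5.37 to 13.26. These sums rest on few genes. Above the library median lay 1 to 3 of 7 measured leukocyte markers in OV-90. Of 5 endothelial markers at most 2 did so in any library, and of 6 fibroblast markers at most 3. Fibroblast markers went from 10.56 to 10.95 in parental to 8.95 to 9.10 in resistant Kuramochi, and from 5.37 to 5.58 to 7.50 to 7.78 in OVSAHO.

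**Figure D1:**
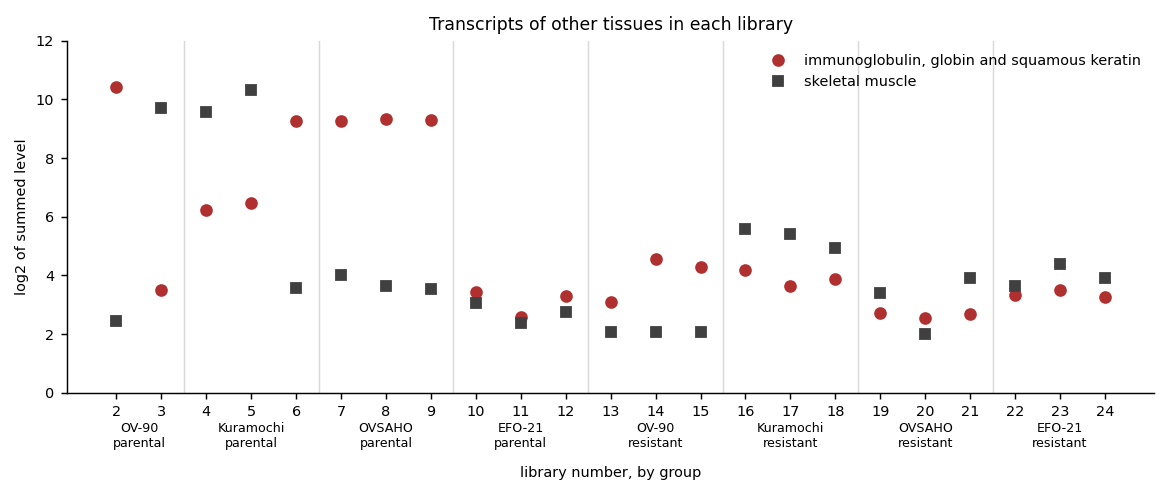
Summed level (log2 of the sum of linear values) of 5 immunoglobulin, globin and squamous keratin genes (circles) and 4 skeletal muscle genes (squares) in each of the 23 libraries, ordered by group. Libraries 2, 6, 7, 8 and 9 hold the first list at 9.26 or more and libraries 3, 4 and 5 the second at 9.57 or more, whereas no resistant library exceeds 5.57 for either.

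The 9 measured genes lie on 6 chromosomes (GRCh37). ALDH1A1 lies at chr9:75515587-75695358 on the minus strand and KLF4 on the same chromosome at chr9:110247133-110252763, also minus. ALDH1A2 (chr15:58245622-58790065, minus) and ALDH1A3 (chr15:101417919-101456831, plus) share chromosome 15, and ALDH3A1 (chr17:19641297-19652256, minus) and SOX9 (chr17:70117161-70122557, plus) share chromosome 17. CD44 lies at chr11:35160429-35253949 on the plus strand, PROM1 at chr4:15964699-16086001 on the minus strand and SOX2 at chr3:181429713-181432224 on the plus strand. SOX2 lies within the longer non-coding gene SOX2-OT on the same strand, so reads of the pair may be shared. The value of SOX2 rests on 1 exon term. The value of CD44 summarises 54 exon and junction terms, and its splice isoforms were not separated.

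Promoter sequences were available from RefSeq (build GRCh38.p14) for 8 of the 10 listed genes, as 300 bases from 250 before to 50 after an annotated transcription start. Shown here are those of the 2 genes with the largest rises in a resistant line (ALDH1A3 and CD44), of ALDH1A1, whose level differed most between lines, and of SOX2, which was lower in 2 resistant lines. They run 5′ to 3′ on the strand of the gene. Capitals mark 3 motifs matched on either strand, of which the first is the TATA box, TATAAA. The second is the CCAAT box, searched by the letters of its name. The third is the GC box, with the letters GGGCGG.
ALDH1A1 (chr9:72953004-72953303, minus): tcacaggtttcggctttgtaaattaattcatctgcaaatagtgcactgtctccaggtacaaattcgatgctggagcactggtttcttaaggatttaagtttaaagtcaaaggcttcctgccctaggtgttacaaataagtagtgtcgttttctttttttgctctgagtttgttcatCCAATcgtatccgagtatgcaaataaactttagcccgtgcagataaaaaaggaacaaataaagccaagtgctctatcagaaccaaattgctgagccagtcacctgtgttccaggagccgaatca
ALDH1A3 (chr15:100879581-100879880, plus): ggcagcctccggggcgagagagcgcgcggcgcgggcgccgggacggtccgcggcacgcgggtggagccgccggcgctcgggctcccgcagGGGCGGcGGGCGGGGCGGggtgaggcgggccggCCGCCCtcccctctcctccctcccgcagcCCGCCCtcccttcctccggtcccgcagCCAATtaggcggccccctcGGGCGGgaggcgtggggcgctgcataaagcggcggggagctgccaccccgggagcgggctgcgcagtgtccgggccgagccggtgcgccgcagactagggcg
CD44 (chr11:35138921-35139220, plus): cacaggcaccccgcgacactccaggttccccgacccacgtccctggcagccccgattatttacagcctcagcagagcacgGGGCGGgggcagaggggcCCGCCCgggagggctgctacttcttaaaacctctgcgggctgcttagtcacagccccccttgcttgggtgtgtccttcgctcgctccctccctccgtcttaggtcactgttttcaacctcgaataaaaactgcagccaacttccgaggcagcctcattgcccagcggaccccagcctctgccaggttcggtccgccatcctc
SOX2 (chr3:181711675-181711974, plus): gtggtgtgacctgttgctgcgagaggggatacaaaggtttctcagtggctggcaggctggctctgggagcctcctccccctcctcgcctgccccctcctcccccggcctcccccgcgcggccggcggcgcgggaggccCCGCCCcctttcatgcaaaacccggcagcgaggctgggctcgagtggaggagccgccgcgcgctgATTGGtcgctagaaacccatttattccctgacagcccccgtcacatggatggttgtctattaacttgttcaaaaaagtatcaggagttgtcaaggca
The ALDH1A1 promoter holds 7 CpG dinucleotides and that of ALDH1A3 46, against a median of 14 over 35116 annotated promoters, and those of CD44 and SOX2 hold 18 and 20. GC boxes were matched 6 times in ALDH1A3, 2 times in CD44, once in SOX2 and not in ALDH1A1, and 45.0% of all promoters hold at least one. A CCAAT box was matched once each in ALDH1A1, ALDH1A3 and SOX2, where the letters begin 74, 71 and 47 bases before the start, and in 34.6% of all promoters. None of the 4 holds TATAAA, which 11.5% of promoters do, or the SOX core ACAAT (27.4%), or TGANTCA, the AP-1 site (7.71%). The KLF box CACCC, present in 59.9% of promoters, was matched 3 times in ALDH1A3 and 2 times in CD44. One of the 3 in ALDH1A3 overlaps a GC box by a base, as do a pair of GC boxes there. These are matches of letters in a window and not binding sites.

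Before selection the 9 genes differed widely between the lines. Each of the 6 pairs of parental lines was compared in 1 limma fit of the 11 parental libraries, and a gene was called at a Benjamini-Hochberg adjusted p under 0.05 and at least a 2-fold difference. Of the 54 comparisons (9 genes in 6 pairs) 43 were called, and the count by pair was 6 of 9 for Kuramochi against OVSAHO, 7 for Kuramochi against OV-90, Kuramochi against EFO-21 and OVSAHO against EFO-21, and 8 for OVSAHO against OV-90 and OV-90 against EFO-21. Over all genes the same rule called 37.6%, 47.0%, 41.3%, 44.2%, 48.1% and 50.2% in the order in which these pairs are named, so differences between lines were common throughout the transcriptome. All parental libraries of Kuramochi, OVSAHO and OV-90 held the transcripts of other tissues described above, and those of EFO-21 did not. Line and these transcripts therefore cannot be told apart in the pairs with EFO-21. Where the text calls a group at the bottom, every library lay at or below its own 10th percentile (1.70 to 1.87), and a difference from such a group is not a measured fold change.

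**Figure D2:**
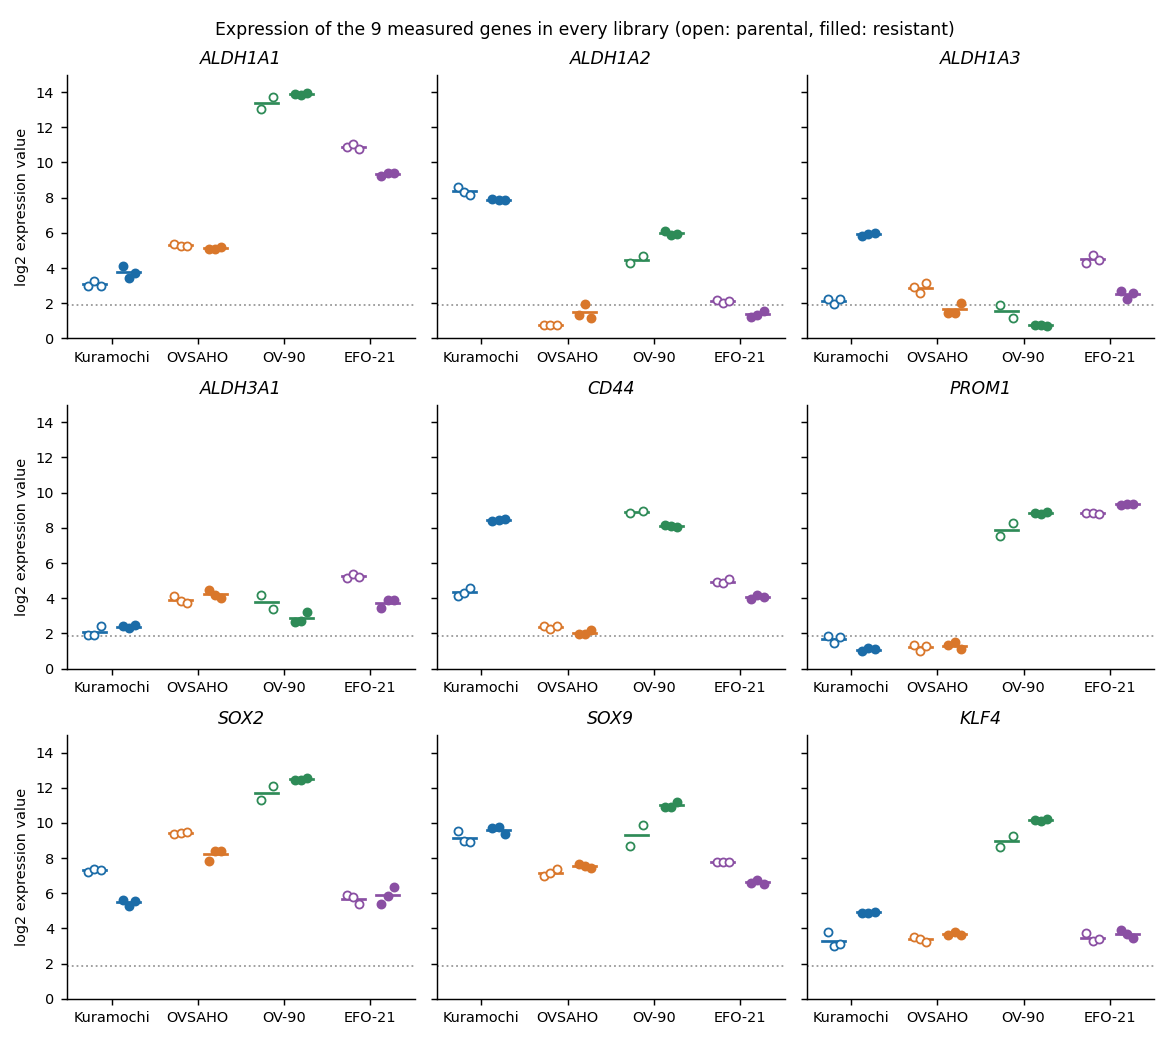
Log2 expression value of each measured gene in every library (open circles parental, filled circles resistant, horizontal bars group means, n = 3 and n = 2 for parental OV-90). The dotted line marks 1.87, the highest 10th percentile of any library. ALDH1A1 and PROM1 are high in OV-90 and EFO-21 and low in the other lines, and KLF4 is high in OV-90 only. CD44 and ALDH1A3 of resistant Kuramochi lie far above the parental Kuramochi libraries.

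Among the aldehyde dehydrogenases, ALDH1A1 separated the lines most. It was 13.01 and 13.71 in the parental OV-90 libraries and 10.87, 11.07 and 10.77 in EFO-21, but 5.39, 5.23 and 5.24 in OVSAHO and 3.00, 3.28 and 2.97 in Kuramochi. No 2 lines overlapped, and all 6 pairs were called. The difference between OV-90 and EFO-21 was 2.46 ± 0.19 (SE, 5.51-fold, adjusted p = 1.36e-06), and OV-90 exceeded Kuramochi by 1245-fold. ALDH1A2, the retinaldehyde dehydrogenase of the embryonic mesoderm, had another order. It was highest in Kuramochi (8.58, 8.33 and 8.17), followed by OV-90 (4.27 and 4.66) and EFO-21 (2.20, 2.00 and 2.13), while OVSAHO was at the bottom (0.73 to 0.78). All 6 pairs were again called, with Kuramochi 14.9-fold above OV-90 (adjusted p = 8.96e-08). Thus the line with the lowest ALDH1A1 had the highest ALDH1A2.

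ALDH1A3 and ALDH3A1 were highest in EFO-21 before selection. ALDH1A3 was 4.30, 4.71 and 4.45 there, 2.92, 2.60 and 3.12 in OVSAHO, 2.24, 1.96 and 2.24 in Kuramochi, and 1.92 and 1.16 in OV-90. EFO-21 was 3.05-fold above OVSAHO (adjusted p = 0.000337), and 4 of 6 pairs were called. Without library 3 the difference between OVSAHO and OV-90 was 0.96 in place of 1.34 and was not called. Neighbours in the lower part of this order were closer together, since Kuramochi did not pass the threshold against OVSAHO (0.73 lower, adjusted p = 0.0337) or OV-90 (0.61 higher, adjusted p = 0.0923). ALDH3A1, which oxidises aromatic and medium-chain aldehydes and is abundant in the cornea, was 5.13, 5.35 and 5.23 in EFO-21. It was 4.15, 3.85 and 3.75 in OVSAHO, 4.19 and 3.39 in OV-90 and 1.88, 1.89 and 2.44 in Kuramochi. OVSAHO and OV-90 differed by 0.13 ± 0.29 (SE, adjusted p = 0.711), and the other 5 pairs were called.

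The surface markers also differed between the parental lines. CD44, the hyaluronan receptor, was 8.86 and 8.95 in OV-90, 4.91, 4.84 and 5.10 in EFO-21, 4.15, 4.30 and 4.61 in Kuramochi and 2.40, 2.27 and 2.39 in OVSAHO. OV-90 lay 15.5-fold above EFO-21 (adjusted p = 2.75e-08). EFO-21 and Kuramochi differed by 0.60, which passed the test (adjusted p = 0.00706) but not the 2-fold threshold, and the other 5 pairs were called. PROM1, a cholesterol-binding protein of membrane protrusions, was 8.86, 8.84 and 8.78 in EFO-21 and 7.54 and 8.26 in OV-90. It was at most 1.87 in the 6 libraries of Kuramochi and OVSAHO, where OVSAHO was at the bottom. The 4 pairs between these 2 sets were called, with differences of at least 6.21 on the log2 scale. EFO-21 exceeded OV-90 by 0.92 (adjusted p = 0.00512, 1.90-fold), and by 1.29, which was called, without library 3.

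Of the transcription factors, SOX2 was 11.28 and 12.11 in OV-90 and 9.37, 9.41 and 9.48 in OVSAHO. It was 7.22, 7.35 and 7.31 in Kuramochi and 5.92, 5.78 and 5.38 in EFO-21, so that the 4 lines did not overlap and all 6 pairs were called, the closest (Kuramochi against EFO-21) at 3.04-fold with an adjusted p of 4.30e-05. SOX9, a factor of cartilage and of several epithelial progenitors, varied least by group mean, from 9.29 in OV-90 (8.71 and 9.87) and 9.13 in Kuramochi (9.53, 8.97 and 8.88) to 7.79 in EFO-21 (7.79, 7.79 and 7.78) and 7.17 in OVSAHO (6.96, 7.16 and 7.38). OV-90 and Kuramochi overlapped (difference 0.16 ± 0.30, adjusted p = 0.642), OVSAHO and EFO-21 differed by 0.62 (adjusted p = 0.0626), and the 4 pairs across these were called. Without library 3 OV-90 exceeded EFO-21 by 0.92, under the 2-fold threshold. KLF4, a zinc finger factor of epithelial differentiation, was 8.63 and 9.27 in OV-90 and between 2.99 and 3.79 in the other 9 parental libraries. Its 3 pairs with OV-90 were called, at 44.6-fold to 50.4-fold, and the 3 pairs among the other lines differed by 0.08 to 0.18 (adjusted p = 0.573 to 0.814).

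With resistance, no gene of the 9 was called in the same direction in all 4 lines, and none in more than 2 lines in one direction. Each line was fitted on its own, and 13 of 36 comparisons (9 genes in 4 lines) were called, 6 higher and 7 lower in the resistant line. In Kuramochi 3 of 9 were higher (ALDH1A3, CD44 and KLF4; 11.8% of all genes) and 1 lower (SOX2; 10.6%). In OVSAHO none was higher (3.93%) and 2 were lower (ALDH1A3 and SOX2; 3.83%). In OV-90 3 were higher (ALDH1A2, SOX9 and KLF4; 9.50%) and none was lower (6.56%). In EFO-21 none was higher (7.11%) and 4 were lower (ALDH1A1, ALDH1A3, ALDH3A1 and SOX9; 7.15%). The median change of the 9 genes was 0.47 in Kuramochi, 0.10 in OVSAHO, 0.79 in OV-90 and -0.87 in EFO-21, against -0.02, 0.00, -0.06 and 0.01 over all genes. Resistant and parental libraries did not overlap for 7, 7, 9 and 7 of the 9 genes in these lines, where 59.2%, 48.4%, 69.1% and 59.7% of all genes did not overlap.

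**Figure D3:**
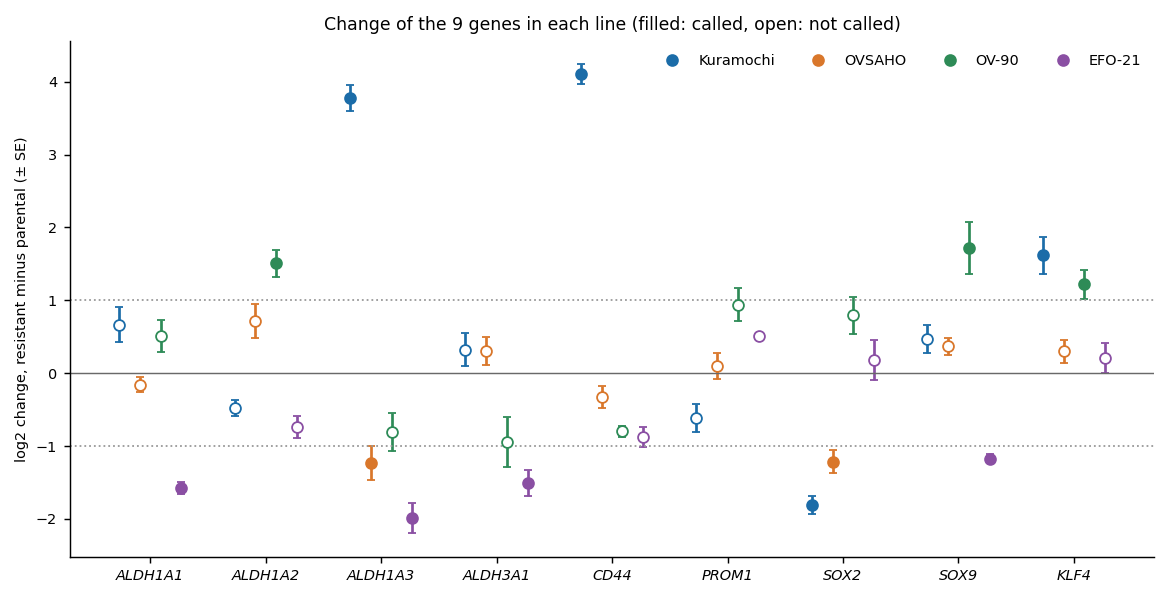
Change of each gene in each line, as the log2 difference of resistant minus parental (y axis) with its standard error. Filled circles were called (dotted lines mark the 2-fold threshold) and open circles were not. CD44 and ALDH1A3 rose by 4.10 and 3.77 in Kuramochi, and all 4 calls in EFO-21 are below zero.

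CD44 showed the largest change of the 9 genes. In resistant Kuramochi it was 8.41, 8.44 and 8.50, above every parental Kuramochi library and near the level of parental OV-90. The rise was 4.10 ± 0.14 (SE, 17.2-fold, adjusted p = 1.09e-05), and the difference was 3.84 against library 6 alone, which lacked the muscle transcripts but held the immunoglobulin, globin and keratin ones. The other lines moved in the opposite direction, none by 2-fold. CD44 was 8.17, 8.10 and 8.06 in resistant OV-90 (a fall of 0.80 ± 0.07, adjusted p = 0.00838), and 3.96, 4.17 and 4.09 in resistant EFO-21 (0.87 lower, adjusted p = 0.00376). In resistant OVSAHO it was 1.96, 1.95 and 2.17 (0.33 lower, adjusted p = 0.149). In all 3 lines every resistant library lay below every parental one. The change in Kuramochi exceeded that in OVSAHO, OV-90 and EFO-21 by 4.43, 4.90 and 4.98 (adjusted p of the differences 3.20e-13, 1.93e-13 and 5.37e-14), whereas OV-90 and EFO-21 differed by 0.08 ± 0.17 (SE, adjusted p = 0.736).

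ALDH1A3 was called in 3 lines, in both directions. It was 5.84, 5.95 and 5.97 in resistant Kuramochi, a rise of 3.77 ± 0.18 (SE, 13.7-fold, adjusted p = 2.69e-05), which made this group the highest of the 8. Against parental library 6 alone the difference was 3.68. The parental Kuramochi libraries (1.96 to 2.24) were near the bottom of the range, at percentiles 10.9 to 12.2, so the size of this rise is uncertain. In resistant EFO-21 ALDH1A3 fell to 2.71, 2.21 and 2.58, which is 3.97-fold lower (adjusted p = 0.000686). In resistant OVSAHO it was 1.47, 1.46 and 2.00, near the bottom of the range, which is 2.36-fold lower (adjusted p = 0.0112). Neither line overlapped its parental libraries. In OV-90 all 3 resistant libraries were at the bottom (0.73 to 0.74), and the difference of 0.81 was not called. The difference between the changes in OVSAHO and EFO-21 was 0.75 ± 0.32 (SE) and did not pass after adjustment over all genes (adjusted p = 0.0810), and each differed from that in Kuramochi by at least 5.01 (adjusted p = 4.70e-10 or below).

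The other aldehyde dehydrogenases were called in 1 line each. ALDH1A1 was 9.22, 9.38 and 9.38 in resistant EFO-21, below all parental libraries (a fall of 1.58 ± 0.09, SE, 2.98-fold, adjusted p = 8.22e-05). It was not called in Kuramochi (4.09, 3.45 and 3.70, a difference of 0.67), OVSAHO (5.08, 5.09 and 5.22, -0.16) or OV-90 (13.89, 13.81 and 13.93, 0.51), with adjusted p of 0.0592, 0.300 and 0.123. The fall in EFO-21 differed from the change in each other line by 1.42 to 2.24 (adjusted p = 6.94e-05 or below). ALDH3A1 also fell in EFO-21, to 3.42, 3.88 and 3.88 (2.84-fold, adjusted p = 0.00114). Of the 4 aldehyde dehydrogenases 3 were thus called lower in this line, against 7.15% of all genes and 1 of 15 other aldehyde dehydrogenases. The fourth, ALDH1A2, was 0.74 lower on the log2 scale (2.11 to 1.37, adjusted p = 0.00913), under 2-fold and without overlap. ALDH3A1 was not called elsewhere, with resistant values of 2.41, 2.28 and 2.48 in Kuramochi, 4.49, 4.17 and 4.0 in OVSAHO and 2.67, 2.68 and 3.20 in OV-90. ALDH1A2 was called only in OV-90, where it rose to 6.08, 5.87 and 5.96 (1.51 ± 0.19, SE, 2.84-fold, adjusted p = 0.0135). In Kuramochi, the line with the highest level, it was 7.93, 7.88 and 7.85 (0.47 lower, adjusted p = 0.0136, under 2-fold), and it was 1.16 to 1.95 in resistant OVSAHO and 1.21 to 1.56, at the bottom, in resistant EFO-21.

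SOX2 fell in 2 lines. It was 5.63, 5.28 and 5.55 in resistant Kuramochi (1.81 ± 0.12 lower, SE, 3.51-fold, adjusted p = 0.000103) and 7.83, 8.39 and 8.39 in resistant OVSAHO (1.22 ± 0.16 lower, SE, 2.32-fold, adjusted p = 0.00308), without overlap. The difference between these changes was 0.59 ± 0.31 (SE) and did not pass the test (adjusted p = 0.130). Against library 6 alone the log2 difference of SOX2 in Kuramochi was -1.83. All parental OVSAHO libraries held immunoglobulin, globin and keratin transcripts (summed level 9.27 to 9.33, against 2.55 to 2.72 in the resistant ones), whose part in the lower SOX2 and ALDH1A3 there was not tested. In resistant OV-90 SOX2 was 12.45, 12.46 and 12.57 (0.79 higher, adjusted p = 0.0655), and in resistant EFO-21 5.41, 5.85 and 6.36, which overlapped the parental values (adjusted p = 0.615).

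SOX9 moved in opposite directions in OV-90 and EFO-21. It was 10.92, 10.92 and 11.18 in resistant OV-90 (1.72 ± 0.36 higher, SE, 3.29-fold, adjusted p = 0.0280) and 6.56, 6.74 and 6.54 in resistant EFO-21 (1.17 ± 0.07 lower, SE, 2.25-fold, adjusted p = 8.18e-05). Their changes differed by 2.89 ± 0.32 (SE, adjusted p = 1.23e-06). In Kuramochi (9.68, 9.74 and 9.37) and OVSAHO (7.65, 7.53 and 7.45) SOX9 was 0.47 and 0.37 higher and was not called (adjusted p = 0.0893 and 0.0539). KLF4 was higher in each resistant line by its mean and called in 2. In resistant Kuramochi it was 4.89, 4.90 and 4.95 (1.62 ± 0.25 higher, SE, 3.07-fold, adjusted p = 0.00282), and in resistant OV-90 10.19, 10.11 and 10.22 (1.22 ± 0.20 higher, SE, 2.33-fold, adjusted p = 0.0197). The differences in OVSAHO (3.61, 3.78 and 3.65) and EFO-21 (3.90, 3.69 and 3.45) were 0.30 and 0.21 (adjusted p = 0.190 and 0.438). PROM1 was the gene with no call in any line. In the lines that express it, it was 8.82, 8.78 and 8.93 in resistant OV-90 (0.94 higher, adjusted p = 0.0362) and 9.27, 9.35 and 9.38 in resistant EFO-21 (0.51 higher, adjusted p = 0.000265). Both stayed under 2-fold without overlap, and in resistant Kuramochi and OVSAHO PROM1 was at the bottom.

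The OV-90 calls changed when single libraries were left out. In parental OV-90, library 3 minus library 2 was 0.70 for ALDH1A1, 0.39 for ALDH1A2, -0.76 for ALDH1A3 and -0.79 for ALDH3A1. It was 0.10 for CD44, 0.72 for PROM1, 0.83 for SOX2, 1.16 for SOX9 and 0.64 for KLF4. Library 3, which held muscle transcripts, was the nearer to the resistant libraries for every gene but CD44. Leaving out a parental library left 1, so that the spread came from the resistant libraries and the lone parental one was assumed to vary like them. Without library 3, SOX2 was 1.21 higher, PROM1 1.30 higher, ALDH1A3 1.19 lower and ALDH3A1 1.34 lower in resistant OV-90. Without library 2, KLF4 was 0.90 higher. Calls from these fits are not counted here, since the share of all genes called in them was not computed. Without any 1 of the resistant libraries 13, 14 and 15 none of the 9 genes was called. The changes of ALDH1A2, SOX9 and KLF4 stayed between 1.20 and 1.76 there, with adjusted p of 0.0662 to 0.103. Of the 10 related genes named further on for a call in OV-90, FABP5 kept its call without each of these 3 libraries and the other 9 did not. Those fits held only 2 libraries per state. In 1 fit of all 23 libraries, which shares its spread over all groups, ALDH1A2, SOX9 and KLF4 were called in OV-90 (adjusted p = 1.2e-05, 1.51e-05 and 0.000156). In the other 3 lines, leaving out any library kept every call of the 9 genes.

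The test that the change was equal in the 4 lines was called for all 9 genes (adjusted p of the F test from 4.74e-14 for CD44 to 0.000330 for KLF4), and for 75.1% of all genes. Of 54 differences of change between 2 lines 32 were called. Kuramochi differed from EFO-21 for 8 of 9 genes (26.6% of all genes), from OV-90 for 7 (33.8%) and from OVSAHO for 4 (24.3%). EFO-21 differed from OV-90 for 5 (24.9%) and from OVSAHO for 5 (15.7%), and OVSAHO from OV-90 for 3 (17.1%). SOX9 had the most (5 of 6 pairs) and PROM1 the fewest (2 of 6).

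**Figure D4:**
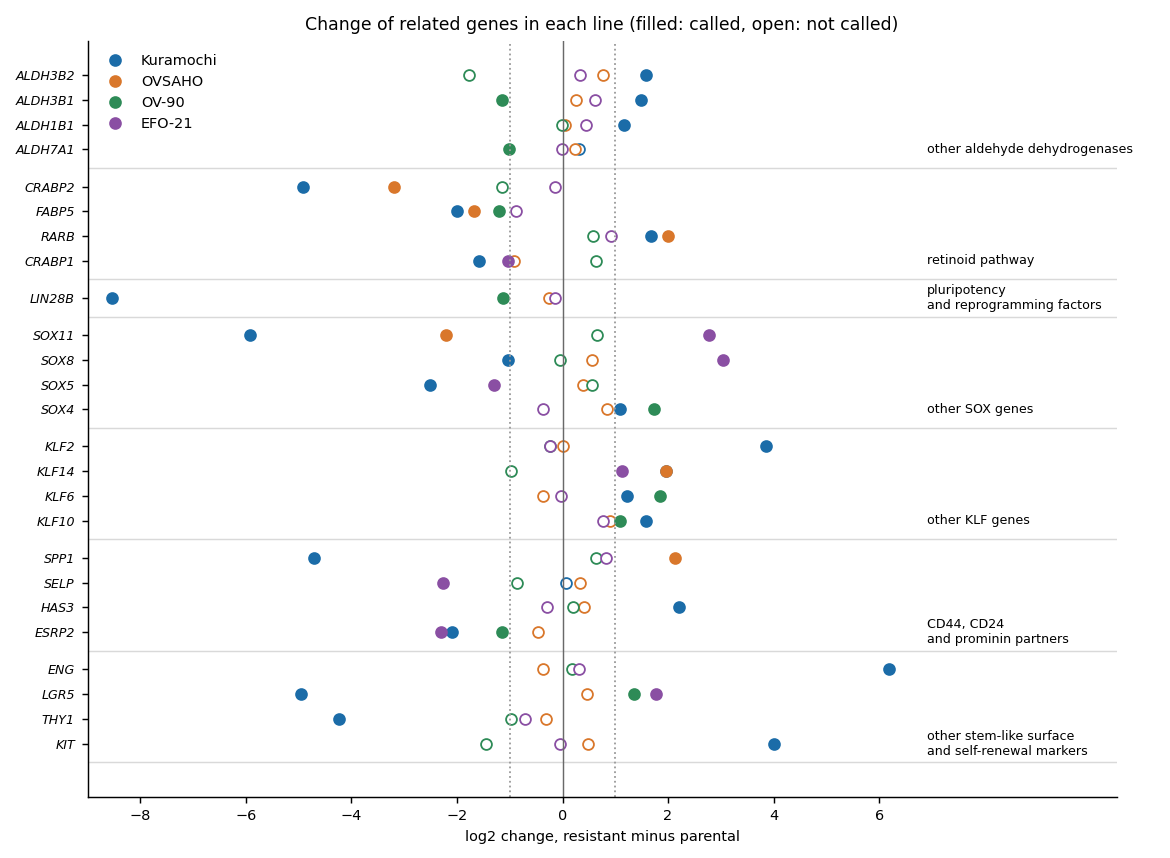
Log2 change of resistant minus parental (x axis) for the related genes named by rule, grouped by gene list, with 1 circle per line. Filled circles were called and dotted lines mark 2-fold. The range runs from LIN28B, 8.54 lower in resistant Kuramochi, to ENG, 6.18 higher in the same line.

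Related genes were counted by list, and each count is to be read against the share of all genes called in that line and direction. Those shares were 11.8% higher and 10.6% lower in Kuramochi, 3.93% and 3.83% in OVSAHO, 9.50% and 6.56% in OV-90, and 7.11% and 7.15% in EFO-21. Of 15 other aldehyde dehydrogenases, 4 were higher and none lower in resistant Kuramochi, none was called in OVSAHO, 1 was higher and 4 were lower in OV-90, and 1 was lower in EFO-21. In Kuramochi ALDH3B2 (4.71 to 6.28), ALDH3B1 (5.89 to 7.38) and the mitochondrial ALDH1B1 (8.31 to 9.47) rose by 1.57, 1.49 and 1.16 (adjusted p = 0.00147, 0.000237 and 8.28e-05). ALDH3B1 and ALDH7A1, which acts in lysine breakdown, fell by 1.15 and 1.01 in OV-90 (adjusted p = 0.0235 and 0.0120). The median change of the 15 genes was 0.45, -0.16, -0.24 and 0.17 in Kuramochi, OVSAHO, OV-90 and EFO-21.

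Genes that handle retinoids, the substrate and product of the ALDH1A enzymes, numbered 20, of which 6 were called lower (10.6% of all genes) and 2 higher (11.8%) in Kuramochi. In OVSAHO 3 were called in each direction (3.93% and 3.83%), as were 2 in OV-90 (9.50% and 6.56%) and 2 in EFO-21 (7.11% and 7.15%). CRABP2, which carries retinoic acid to its nuclear receptors, fell from 12.82 to 7.90 in Kuramochi (4.93 ± 0.09, SE, adjusted p = 3.44e-06) and from 7.74 to 4.55 in OVSAHO (3.19 ± 0.12, SE, adjusted p = 5.73e-05). FABP5, a fatty acid binding protein that also binds retinoic acid, fell by 2.00 in Kuramochi, by 1.69 in OVSAHO and by 1.21 in OV-90 (adjusted p = 0.000351, 0.000152 and 0.00430). RARB, a receptor that retinoic acid itself induces, rose from 4.44 to 6.12 in Kuramochi (adjusted p = 0.000209) and from 1.88 to 3.88 in OVSAHO, with an adjusted p of 0.000651. The parental OVSAHO libraries (1.77 to 2.05) were near the 10th percentile of the libraries, so the size of the RARB rise there is uncertain. CRABP1 fell by 1.59 in Kuramochi (adjusted p = 0.000105) and 1.03 in EFO-21 (adjusted p = 0.00240, or 0.0714 in a fit of all 23 libraries). Without library 11, 22 or 24 the latter was under 2-fold (-0.94 at the smallest). RBP4, the plasma carrier of retinol, was called lower in all 4 lines, by 2.60, 3.03, 1.30 and 2.69 in Kuramochi, OVSAHO, OV-90 and EFO-21 (adjusted p = 0.000365, 0.000851, 0.0366 and 9.15e-05), and was singled out after its values were seen. Its resistant Kuramochi libraries were close to 0 (mean 0.25), so the size of that fall is not a measured fold change. The resistant OVSAHO mean of 1.76 was also near the 10th percentile of the libraries (1.70 to 1.87), so the size of the fall there is uncertain. Median changes of the list were -0.41, 0.01, -0.08 and -0.06.

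Of 10 pluripotency and reprogramming genes, resistant Kuramochi had 3 higher (11.8% of all genes) and 2 lower (10.6%). OVSAHO had 1 lower (3.83%), OV-90 1 lower (6.56%) and EFO-21 4 lower (7.15%). Median changes were -0.40, -0.23, -0.05 and -0.15 in these lines. LIN28B, an RNA-binding protein that blocks let-7 maturation, fell from 11.34 to 2.80 in Kuramochi (8.54 ± 0.26, SE, adjusted p = 8.36e-06) and by 1.13 in OV-90 (adjusted p = 0.0174, or 0.205 in a fit of all 23 libraries). The other SOX genes are relatives of SOX2 and SOX9 with the same type of DNA-binding domain. Of 13, resistant Kuramochi had 1 higher (11.8% of all genes) and 5 lower (10.6%), and OVSAHO 1 higher (3.93%) and 2 lower (3.83%). In OV-90 2 were higher (9.50%), and in EFO-21 4 were higher (7.11%) and 1 lower (7.15%). SOX11 fell from 9.97 to 4.05 in Kuramochi (adjusted p = 5.74e-06) and from 8.57 to 6.36 in OVSAHO (adjusted p = 0.00127), the lines in which SOX2 fell, and was called higher in EFO-21, where the parental group was at the bottom (0 to 0.42) and the resistant libraries at 1.90 to 4.21. SOX4 rose by 1.08 in Kuramochi and 1.73 in OV-90 (adjusted p = 0.00144 and 0.0207). SOX8 rose by 3.04 in EFO-21 (adjusted p = 0.000505) and fell by 1.03 in Kuramochi (adjusted p = 0.00895), where leaving out library 6, 17 or 18 took it under 2-fold (-0.89 at the smallest). SOX5 fell from 6.97 to 4.45 in Kuramochi (adjusted p = 0.000183).

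The other KLF genes were called higher for 6 of 14 in Kuramochi (11.8% of all genes), 2 in OVSAHO (3.93%), 7 in OV-90 (9.50%) and 1 in EFO-21 (7.11%). In Kuramochi 2 were lower (10.6%) and in the other lines none was, and their median changes were 0.07, 0.07, 1.09 and 0.34. KLF2, an endothelial and T cell factor, rose from 3.18 to 7.03 in Kuramochi (3.85 ± 0.20, SE, adjusted p = 3.83e-05). KLF6 rose by 1.22 in Kuramochi and 1.85 in OV-90 (adjusted p = 0.00314 and 0.0190). KLF10, which TGF-beta induces, rose by 1.58 and 1.08 in the same lines (adjusted p = 9.99e-05 and 0.0352), and was 0.90 higher in OVSAHO and 0.77 in EFO-21, under 2-fold (adjusted p = 0.00200 and 4.47e-05). KLF14 rose from 4.47 to 6.44 in OVSAHO (adjusted p = 0.00174). It was listed at 0 in all 3 parental EFO-21 libraries and at the bottom in parental Kuramochi.

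Partners of CD44, CD24 and PROM1 were called for 3 higher (11.8% of all genes) and 5 lower (10.6%) of 16 in Kuramochi, and 1 higher in OVSAHO (3.93%). In OV-90 3 were higher (9.50%) and 1 lower (6.56%), and in EFO-21 4 were lower (7.15%). Their median changes were -0.15, 0.22, 0.06 and 0.18 in the 4 lines in this order. In Kuramochi, where CD44 rose, the hyaluronan synthase gene HAS3 rose by 2.21 (4.27 to 6.47, adjusted p = 0.000730), and the CD44 ligand SPP1 (osteopontin) fell by 4.71 (8.79 to 4.08, adjusted p = 5.74e-06). ESRP2, an epithelial splicing factor that acts on CD44 exons, fell by 2.09 in Kuramochi, 1.15 in OV-90 and 2.30 in EFO-21 (adjusted p = 0.000108, 0.0304 and 0.000186), and leaving out any 1 of the OV-90 libraries ended its call in that line. SPP1 was called higher in OVSAHO (adjusted p = 0.000459), from a parental group at the bottom (0.42 to 0.71) to a mean of 2.72, and SELP, a receptor of CD24, fell by 2.26 in EFO-21 (adjusted p = 1.79e-05).

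Of 16 other stem-like surface and self-renewal markers, 5 were higher (11.8% of all genes) and 4 lower (10.6%) in Kuramochi. In OVSAHO 1 was called in each direction (3.93% and 3.83%), in OV-90 4 were higher (9.50%), and in EFO-21 2 were called in each direction (7.11% and 7.15%), with median changes of 0.02, 0.27, 0.23 and -0.07 in the 4 lines. ENG (endoglin) and the receptor kinase KIT rose in Kuramochi by 6.18 (3.65 to 9.83, adjusted p = 5.74e-06) and 4.0 (4.61 to 8.61, adjusted p = 1.20e-05). In the same line LGR5, a WNT pathway receptor of intestinal stem cells, fell by 4.95 (7.90 to 2.95, adjusted p = 2.28e-05) and THY1 (CD90) by 4.24 (8.20 to 3.96, adjusted p = 3.59e-05). Beside these changes, the summed endothelial markers went from 6.50 to 6.95 in parental to 7.78 to 8.04 in resistant Kuramochi while the fibroblast markers were lower, as given above, and their part in the ENG, KLF2 and THY1 values was not tested. In parental Kuramochi 0 of 5 endothelial and 2 of 6 fibroblast markers lay above the library median, and in resistant Kuramochi 1 of each. LGR5 rose instead by 1.35 in OV-90 (adjusted p = 0.0175), and was called higher in EFO-21 from a parental group at the bottom (0.93 to 1.07) to a mean of 2.78 (adjusted p = 0.000190). Markers used side by side to define stem-like cells therefore moved in both directions within resistant Kuramochi.

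Several of these list counts turned on single libraries or on low values. Without library 13, 14 or 15 no gene of any list was called in OV-90 apart from FABP5. Without library 2 or library 3 list counts in OV-90 also moved, in fits that left 1 parental library. The share of all genes called in those fits was not computed. Without libraries 4 and 5, with the lone library 6 again assumed to vary like the resistant ones, fewer genes were called lower in Kuramochi. This held for the SOX genes, the KLF genes and the partners of CD44, CD24 and PROM1. With genes of low mean filtered out, no pluripotency gene was higher in Kuramochi or lower in EFO-21, and 1 of the partners was lower in EFO-21. In the retinoid list, single libraries left out took the higher count to 1 in Kuramochi (libraries 5, 6, 16, 17 or 18) and in OVSAHO (libraries 9, 19 or 21), and the lower count to 1 in EFO-21 (libraries 11, 22 or 24).

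Across the 23 libraries the 9 genes did not form a single pattern. Pearson correlations between pairs of them ran from -0.83 (ALDH1A2 with ALDH3A1) to 0.90 (ALDH1A1 with PROM1), as descriptions over libraries that share 4 lines. For the 8 genes called in at least 1 line, the 2 genes of most like profile over the 23 libraries were found among genes whose highest group mean exceeded 5.81. They were IL2RG and CASC15 for ALDH1A1 (r = 0.99 for both), SNX16 and CALM3 for ALDH1A2 (0.99 for both), STK32B and SERTAD4-AS1 for ALDH1A3 (0.89 for both), and MAP2K5 and ZCRB1 for ALDH3A1 (0.95 and 0.93). CD44 was most like NUPR1 and LRRC17 (0.98 for both). SOX2 was most like LPCAT3 and FOXP2 (0.98 for both), SOX9 most like PCSK5 and TXNRD1 (0.97 for both), and KLF4 most like SYTL5 and ABCC2 (0.99 for both). NUPR1 rose with CD44 in Kuramochi, from 6.31 to 10.02, and STK32B with ALDH1A3, from a mean of 0.95, below the 10th percentile, to 6.59.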

How the data were processed

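RNA of parental and prexasertib-resistant cultures was sequenced, and reads were placed on build GRCh37/hg19 by the authors. The deposited values are log2 expression values, 1 per gene, which the authors derived from exon and junction reads with a robust linear model (16448 genes) or as a mean of log2 exon values (5210 genes) and then quantile normalized, which hides a shift common to most genes. The authors' table holds no counts, so sequencing depth is unknown and counting error could not be estimated. Columns name line and state but no replicate. Symbols were matched by NCBI Gene ID for 20745 of 21658 genes, and gene positions come from GENCODE on GRCh37.

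limma (version 3.58.1, R 4.3.3; eBayes with a mean-variance trend) was fitted to all genes, with no pseudocount or filter, for each line alone, for the 11 parental libraries, and for all 23 libraries with 8 group means to test differences of change. P-values are two-sided, adjusted by Benjamini-Hochberg over all genes, and measure only the spread between these libraries. Calls needed an adjusted p under 0.05 and at least 2-fold. Fits were tested on simulated data. Alternatives were 1 fit of all libraries, no trend, a filter at the 25th percentile of gene means, recentred medians, thresholds of 1.5-fold and none, and leaving out each library. Leaving out libraries 2 and 6, 3 to 5, or 4 and 5 was added after seeing the data. From each related gene list the text names up to 4 genes with the largest change among called genes without overlap and with a group mean above 5.81, the median of gene means. The genes and lists were chosen with earlier results of these data known.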

Additional observations from a re-analysis of the deposited data

Results flagged for a closer look

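The change from parental to resistant differed between the 4 lines by the F test on 3 degrees of freedom for each of the 9 genes, which 75.1% of all genes also passed. The adjusted p was 4.74e-14 for CD44, which was 4.10 higher in resistant Kuramochi and 0.33 to 0.87 lower in the other lines, and 1.03e-10 for ALDH1A3, which was 3.77 higher in Kuramochi and 0.81 to 1.99 lower elsewhere. It was 2.31e-07 for ALDH1A1, 2.06e-06 for ALDH1A2, 2.97e-06 for SOX9 and 3.46e-06 for SOX2. SOX9 was 1.72 higher in OV-90 and 1.17 lower in EFO-21, and SOX2 was lower in Kuramochi and OVSAHO. For ALDH3A1, PROM1 and KLF4 it was 0.000106, 0.000114 and 0.000330, with the directions of PROM1 resting on changes under 2-fold. All 9 were also called without libraries 2 and 6 and without libraries 3, 4 and 5, alternatives added after the data were seen.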

How the results depend on the processing

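No paired analysis was possible because the columns carry no replicate number. Counts of called genes among the 9 were 4, 2, 3 and 4 in Kuramochi, OVSAHO, OV-90 and EFO-21. The filter on low values removed ALDH1A3 and ALDH3A1, which left 1 in OVSAHO and 2 in EFO-21 and took ALDH1A3 out of the Kuramochi count. With a 1.5-fold threshold or none OV-90 had 5, and with none EFO-21 had 7. The share of all genes called at these thresholds was not computed. Leaving out 1 resistant library gave 0 in OV-90. Counts are not given for OV-90 fits with a lone parental library, which was assumed to vary like the resistant ones. Leaving out 1 library changed no other count by over 1.5 times. A single fit of the 23 libraries, no trend and recentred medians changed none of these counts by over 1.5 times. Differences that turned with 1 library left out are given on the log2 scale from lowest to highest, and none had been called. In Kuramochi these were SELP -0.019 to 0.12. In OVSAHO these were PROM1 -0.0014 to 0.20, LIN28B -1.12 to 0.71 and KLF2 -0.061 to 0.056. In OV-90 these were ALDH1B1 -0.044 to 0.038, CRABP1 -0.91 to 2.18, SOX11 -0.14 to 1.05, SOX8 -0.27 to 0.18, HAS3 -0.00605 to 0.49 and ENG -0.0066 to 0.36. In EFO-21 these were SOX2 -0.064 to 0.41, ALDH7A1 -0.024 to 0.021, LIN28B -0.67 to 0.48 and KLF6 -0.094 to 0.044. Between parental lines they were KLF4 in Kuramochi minus OVSAHO (-0.33 to 0.076), SOX9 in Kuramochi minus OV-90 (-0.74 to 0.41), ALDH3A1 in OVSAHO minus OV-90 (-0.27 to 0.52) and KLF4 in OVSAHO minus EFO-21 (-0.19 to 0.039). Without libraries 4 and 5 ALDH3A1 and SELP in Kuramochi were -0.053 and -0.052. Without libraries 2 and 6 parental KLF4 in Kuramochi minus OVSAHO was 0.012. Without libraries 3, 4 and 5 parental SOX9 in Kuramochi minus OV-90 was 0.173, and ALDH3A1 in OVSAHO minus OV-90 was -0.271. These removals of several libraries were chosen after seeing the data. Without libraries 4 and 5 Kuramochi also had 1 parental library, under the same assumption. Removing library 3 took ALDH1A3 in OVSAHO against OV-90 (0.96) and SOX9 in OV-90 against EFO-21 (0.92) under the 2-fold threshold. With no counts deposited, what depth limits could not be assessed.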
